A study of Macaca fascicularis with 20 samples.

Results

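miR-9, miR-124 and miR-128 are the microRNAs most often used to mark brain tissue, and they were followed here in the fetal visual cortex of the crab-eating macaque (Macaca fascicularis). They were chosen by name (mir-9, mir-124 and mir-128 as the tables spell them), with both mature arms of each hairpin and any locus suffix. That gave 3 names, miR-9, miR-124 and the spelling miR-124a, of the 901 in the 2 count tables used, and 828 names stood in both tables. miR-9 and miR-124 each had a row in both tables and miR-124a had a row in the table of set 2. No value of miR-128 is reported, and it is not analysed here. The 2 shared names gave 4 arms, of which 3 passed the filter on low counts, which kept 1139 of the 1656 arms of shared names. Both arms of miR-9 and the 3p arm of miR-124 were tested, and the 5p arm of miR-124 was too low.

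Small RNA was sequenced from pieces of cortex cut out with a laser in 7 regions. They were the ventricular zone (VZ), the germinal layer that lines the ventricle, of areas 17 and 18 (VZ_17, VZ_18), the outer subventricular zone (OSVZ), a second germinal layer, of area 18 (OSVZ_18), its inner and outer sublayers in area 17 (OSVZ_17int, OSVZ_17ext), and the cortical plate, the layer of young neurons (CP), of both areas (CP_17, CP_18). Area 17 is the primary visual cortex and area 18 its neighbour. No treatment, strain, genotype or sex is given in the labels, and all 7 regions are fetal tissue. Each region had 2 libraries, 1 in set 1 from embryonic day 80 and 1 in set 2 from embryonic day 79, so replicate 1 of every region belongs to set 1, and embryonic day cannot be told apart from set. The labels do not say whether a set is a single fetus or whether animals were pooled, so a p-value here rests on library-to-library spread, part of which may be technical. A further 6 labelled samples, of another set, were not analysed here.

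A microRNA hairpin yields a 5p and a 3p strand, and the strand loaded into an Argonaute protein guides it to matching messenger RNAs, which are then repressed. miR-9 is known to be made in neural progenitors and in young neurons, and in progenitors it restrains factors that keep them dividing, such as the nuclear receptor TLX and the Notch target HES1. miR-124 is best known as a neuronal microRNA that represses non-neuronal transcripts, and miR-128 as one that rises as neurons mature.

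The libraries held 3603478 to 9517217 counted reads. Values are given as CPM, the counts of an arm scaled to a common library size, after TMM scaling, a correction for differences in library composition, and its factors ran from 0.567 to 1.32 in set 1 and from 1.04 to 1.51 in set 2. VZ_18 replicate 1 stood apart within set 1 at the factor 1.32, where the other 6 libraries of the set lay at 0.567 to 0.808, and it held the highest summed level of red cell microRNAs, 326.6 CPM against 18.73 to 127.3 in the other libraries. VZ_17 replicate 2 stood apart by its low miR-9. The miR-9 differences between VZ and CP and the calls on the neuronal and progenitor lists are also given without them. The lists of other cell types and the other named arms are given only with them. The tissue label was checked on neural microRNAs: miR-125b-5p had 1260561 to 3622435 counts per library and miR-9-5p 24314 to 515936, whereas miR-124-3p, a defining neuronal marker, had 0 to 19. The muscle microRNA miR-1-3p had 21 to 747 counts.

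miR-9-5p was among the most abundant arms sequenced, ranking 5 of 1139 by its mean of 42170 CPM and from 3 to 23 within single libraries. miR-9-3p ranked 17 by its mean of 8216 CPM, and 12 to 33 within libraries. Together they took between 0.771 and 8.33% of the reads of a library. These ranks compare reads, and different small RNAs are ligated and sequenced with different efficiency, so they do not order the molecules in the tissue. miR-9-5p and miR-9-3p come from the same hairpin, here without a locus suffix, so the hairpin genes that encode miR-9 were not told apart.

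In the VZ, miR-9-5p lay at 58840 CPM in VZ_17 replicate 1, 3290 in VZ_17 replicate 2, 33010 in VZ_18 replicate 1 and 36370 in VZ_18 replicate 2. The libraries of VZ_17 thus differed by 17.9 times, the widest gap of any region for this arm, while those of VZ_18 were close. In the 6 OSVZ libraries miR-9-5p ranged from 8549 CPM in OSVZ_17int replicate 2, through a median of 30180, to 63780 in OSVZ_17int replicate 1. In the CP it lay at 118700 CPM in CP_17 replicate 1, 26550 in CP_17 replicate 2, 81010 in CP_18 replicate 1 and 31620 in CP_18 replicate 2. The zones overlapped: the set 1 CP libraries were above all others, and the set 2 CP libraries fell within the range of both germinal zones. Of all tested arms, 13.2% did not overlap between VZ and CP and 8.43% between OSVZ and CP.

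The zone means of miR-9-5p were 32880 CPM ± 22820 (SD, n = 4) in the VZ, 33490 ± 20650 (n = 6) in the OSVZ and 64470 ± 43720 (n = 4) in the CP. By region mean the order was CP_17 at 72630 CPM, CP_18 at 56310, OSVZ_18 at 43810, OSVZ_17int at 36170, VZ_18 at 34690, VZ_17 at 31070 and OSVZ_17ext at 20510. Each pair of neighbours in this order overlapped in its libraries. An edgeR quasi-likelihood test of any difference among the 7 regions gave miR-9-5p an adjusted p of 0.638, in a test that called 5.18% of arms at an adjusted p under 0.05.

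miR-9-3p, the other strand, was spread differently. Its VZ values were 12650 CPM in VZ_17 replicate 1, 2007 in VZ_17 replicate 2, 7531 in VZ_18 replicate 1 and 11340 in VZ_18 replicate 2. The OSVZ libraries ranged from 3273 CPM in OSVZ_17int replicate 2, through a median of 9009, to 17700 in OSVZ_17ext replicate 1. In the CP the arm lay at 6942 and 3192 CPM in CP_17 and at 9328 and 5139 in CP_18, replicate 1 before replicate 2. The CP values all fell inside the range of the VZ values, and VZ_17 replicate 2 was again the lowest library.

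The zone means of miR-9-3p were 8384 CPM ± 4774 (SD, n = 4) in the VZ, 9481 ± 4689 (n = 6) in the OSVZ and 6150 ± 2614 (n = 4) in the CP. Its region order began with OSVZ_17ext at 13190 CPM, the region where miR-9-5p was lowest, and ended with CP_17 at 5067, the region where miR-9-5p was highest. Between them came VZ_18 at 9438, OSVZ_18 at 8944, VZ_17 at 7330, CP_18 at 7233 and OSVZ_17int at 6308, and again neighbours overlapped. The edgeR test of any difference among regions gave an adjusted p of 0.527 for miR-9-3p.

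**Figure D1:**
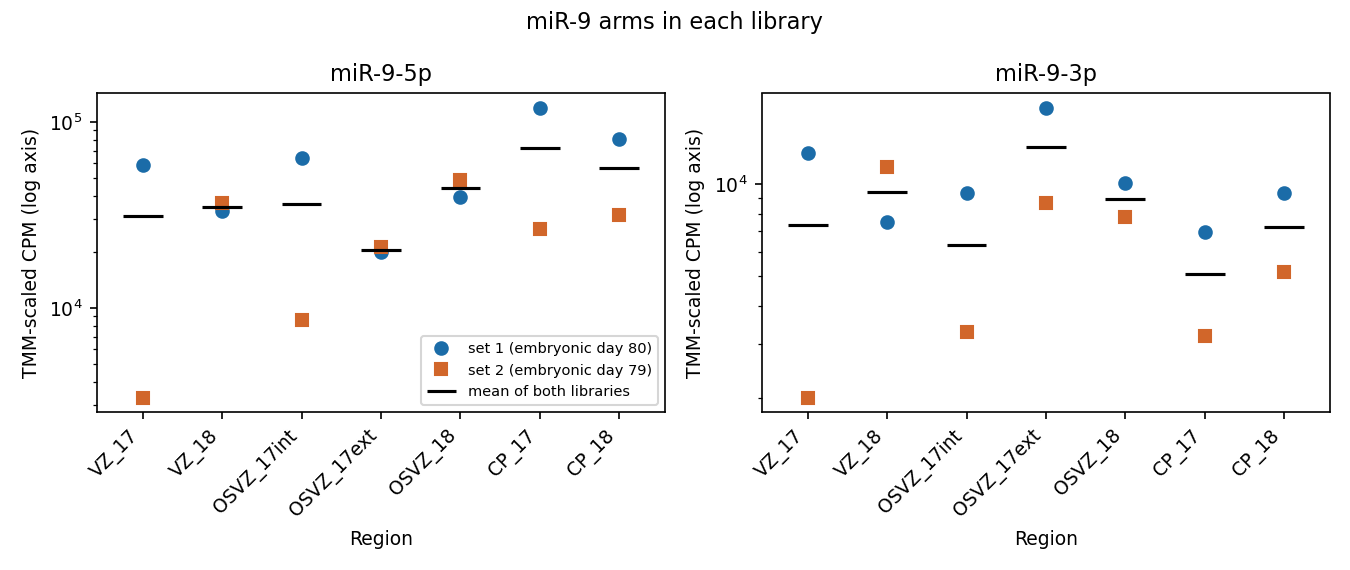
TMM-scaled CPM of miR-9-5p (left) and miR-9-3p (right) on log axes in the 7 regions. Circles are libraries of set 1, squares libraries of set 2 and lines the mean of both. The sets lie far apart within VZ_17, where miR-9-5p is at 58840 and 3290 CPM, and VZ_17 of set 2 is the lowest library for both arms.

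Neither arm of miR-9 passed the test between germinal zones and CP. The comparison of VZ with CP sets progenitors at the ventricle against young neurons, and edgeR called 84 arms there, 7.37% of those tested. miR-9-5p was 0.92 ± 0.51 (SE) lower in the VZ on the log2 scale, with a 95% interval from -1.95 to 0.119 and an adjusted p of 0.298. miR-9-3p was 0.47 ± 0.40 higher, with an interval from -0.337 to 1.28 and an adjusted p of 0.501. The fit takes the set as a block. Differences of log2 scaled CPM within each set, taken outside the fit, had the same direction. VZ minus CP was -1.15 in set 1 and -1.41 in set 2 for miR-9-5p, and 0.279 and 0.236 for miR-9-3p. The fitted miR-9-5p difference was thus smaller in size than in either set, and that of miR-9-3p larger. The miR-9-5p interval holds both 0 and a large deficit in the VZ, so these libraries excluded neither.

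The VZ result turned on single libraries. Without VZ_17 replicate 1, miR-9-5p was 2.14 lower in the VZ on the log2 scale. The median of all tested arms was then -0.56, and miR-9-5p was at -1.58 relative to it. Without VZ_17 replicate 2, the difference of miR-9-5p was -0.356, or 0.0224 relative to a median of -0.379. A setting without VZ_17 replicate 2 and VZ_18 replicate 1 together was chosen after seeing the data, VZ_17 replicate 2 by its low miR-9 itself. Leaving that library out, alone or with the other, was bound to raise miR-9 in the VZ, so no test is drawn from it. Without both, miR-9-5p differed by 0.00565 and miR-9-3p by 1.31, VZ minus CP. Relative to the median of all arms, then -0.818, they were at 0.824 and 2.13. Without VZ_18 replicate 1 alone, miR-9-5p was at -0.364 and miR-9-3p at 1.02, or 0.0742 and 1.45 relative to the median. miR-9-3p turned to -0.19 without VZ_17 replicate 1 and to -0.125 without VZ_18 replicate 2. Relative to the median it stayed above 0, at 0.371 and 0.165.

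The comparison of OSVZ with CP, the basal germinal layer against young neurons, had the same direction for each arm. edgeR called 72 arms, 6.32%, and neither arm of miR-9 was among them. miR-9-5p was 0.60 ± 0.48 lower in the OSVZ on the log2 scale (adjusted p = 0.662 in edgeR), and within the sets the difference was -1.39 in set 1 and -0.185 in set 2. miR-9-3p was 0.61 ± 0.38 higher (adjusted p = 0.515 in edgeR), at 0.5 in set 1 and 0.673 in set 2. The median of all tested arms was itself -0.222 for the VZ and -0.203 for the OSVZ, each minus the CP, and moved to 0.21 and 0.0353 with library totals in place of TMM. Relative to that median, miR-9-5p was at -0.695 for VZ against CP with TMM and -0.782 with library totals, and miR-9-3p at 0.696 and 0.612.

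Between the germinal layers the miR-9 arms were close in mean. miR-9-5p differed by 0.31 ± 0.48 on the log2 scale, OSVZ minus VZ, and miR-9-3p by 0.13 ± 0.37, with adjusted p of 0.869 and 0.926 in edgeR, which called 1 arm, 0.0878%. The 95% intervals ran from -0.668 to 1.29 and from -0.624 to 0.892, so the data hold neither arm to a narrow range between these layers. The sets went opposite ways for miR-9-5p, at -0.237 in set 1 and 1.22 in set 2.

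The inner and outer sublayers of the area 17 OSVZ were compared next. miR-9-3p was lower in the inner sublayer in both sets, at 9343 CPM against 17700 in set 1 and 3273 against 8676 in set 2. The edgeR difference was -1.14 ± 0.57 on the log2 scale with an adjusted p of 0.938, in a comparison where 0% of arms were called. miR-9-5p had no common direction there: it lay at 63780 CPM in the inner and 19910 in the outer sublayer in set 1, and at 8549 and 21100 in set 2. Its fitted difference was 0.20 ± 0.75, with an adjusted p of 0.985, and it took the other sign with library totals, at -0.0276.

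Neither arm of miR-9 passed the edgeR tests between areas 17 and 18. Over the 3 zones, miR-9-5p was at -0.59 ± 0.42 on the log2 scale, area 17 minus area 18 (adjusted p = 0.749), and miR-9-3p at -0.51 ± 0.32 (adjusted p = 0.691), where 0.0878% of arms were called. Within the VZ, the log2 difference of miR-9-5p was 0.834 in set 1 and -3.47 in set 2, the set that holds the low VZ_17 library. The fitted VZ difference of -0.92 ± 0.77 had an adjusted p of 0.714 in edgeR. It became -3.12 without VZ_17 replicate 1 and 0.293 without VZ_17 replicate 2. The median of all arms moved as well, from -0.302 to -0.612 and to -0.921 in these fits. edgeR called 0.176% of arms in this comparison. Within the OSVZ, where 0% were called, the differences were -1.04 ± 0.61 for miR-9-5p and -0.12 ± 0.49 for miR-9-3p (adjusted p = 1 for both). Within the CP, also with 0% called, they were 0.20 ± 0.72 and -0.56 ± 0.57 (adjusted p = 0.994 for both). The term for a zone difference that itself differed between areas, with 0.0878% of arms called, was -1.13 ± 1.03 for miR-9-5p and -0.30 ± 0.81 for miR-9-3p, with adjusted p of 0.942 and 1. Without VZ_17 replicate 1 this term was -3.52 for miR-9-5p, and without VZ_18 replicate 2 it was -0.0873. Fits without a VZ library left its region with a single library, so only the sizes of their differences are given here.

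**Figure D2:**
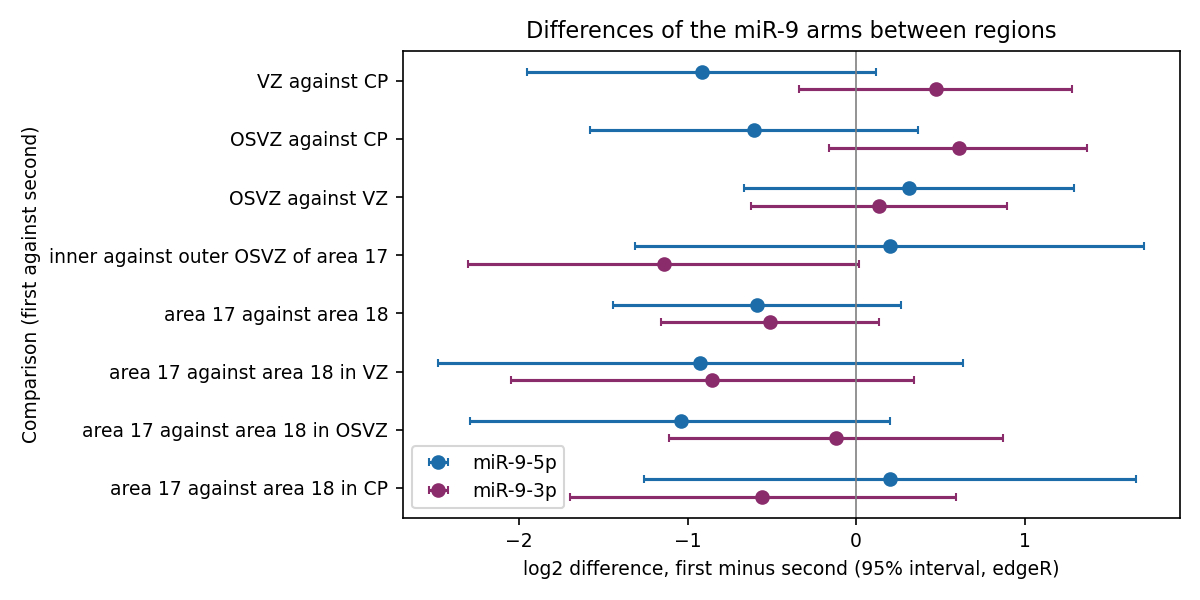
Fitted log2 differences of miR-9-5p (blue) and miR-9-3p (purple) in 8 comparisons of regions, the first named minus the second, with 95% intervals from edgeR; the grey line marks no difference. Every interval crosses 0. In both comparisons with CP, miR-9-5p lies left of the line and miR-9-3p right of it, at -0.92 and 0.47 for VZ against CP.

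Both arms of miR-9 were higher on average in set 1, without passing the test. miR-9-5p averaged 59220 CPM in set 1 and 25120 in set 2, a fitted log2 difference of 1.39 ± 0.436 with an adjusted p of 0.0587 in edgeR. miR-9-3p averaged 10510 and 5922 CPM, a difference of 0.99 ± 0.317 with an adjusted p of 0.0639. edgeR called 58 arms, 5.09%, between sets. With library totals in place of TMM the differences were 0.602 and 0.172, with adjusted p of 0.34 and 0.708, while the median of all arms moved from -0.0181 to -0.814. The adjusted p of miR-9-5p ranged from 0.00274 to 0.366 as single libraries were left out, the lowest without VZ_18 replicate 1 and the highest without OSVZ_17int replicate 2; both arms passed without VZ_18 replicate 1 and without VZ_18 replicate 2. With no filter on low counts both passed, with adjusted p of 0.000319 and 0.0144. miR-130b-3p took 2.44 to 25.5% of reads in set 1 and 0.263 to 0.44% in set 2, and with miR-130b left out of the library totals the set differences of the miR-9 arms were 0.798 and 0.373, with adjusted p of 0.224 and 0.417.

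The arms of miR-9 were also set against each other within a library, which needs no scaling between libraries. The CP had more 5p reads for each 3p read. The ratio of miR-9-5p to miR-9-3p counts was 4.65 in VZ_17 replicate 1, 1.64 in VZ_17 replicate 2, 4.38 in VZ_18 replicate 1 and 3.21 in VZ_18 replicate 2. In the CP it was 17.1 in CP_17 replicate 1, 8.32 in CP_17 replicate 2, 8.68 in CP_18 replicate 1 and 6.15 in CP_18 replicate 2. The lowest CP library thus lay above the highest VZ library, and the groups did not overlap. Of 101 microRNA names with both arms at a mean of at least 10 CPM, 15.8% did not overlap between VZ and CP, 8.91% with the lower ratio in the VZ. The separation with the lower ratio in the VZ was thus found for 9 of the names, miR-9 among them.

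In the OSVZ the miR-9 ratio covered a wide range. It was 6.83 in OSVZ_17int replicate 1 and 2.61 in replicate 2, 1.12 in OSVZ_17ext replicate 1 and 2.43 in replicate 2, and 3.9 in OSVZ_18 replicate 1 and 6.18 in replicate 2. The 2 highest of these reached into the CP range, whereas 6.93% of the names did not overlap between OSVZ and CP, 2.97% with the lower ratio in the OSVZ, and OSVZ_17ext replicate 1, with nearly as many 3p as 5p reads, was the lowest of all 14 libraries.

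**Figure D3:**
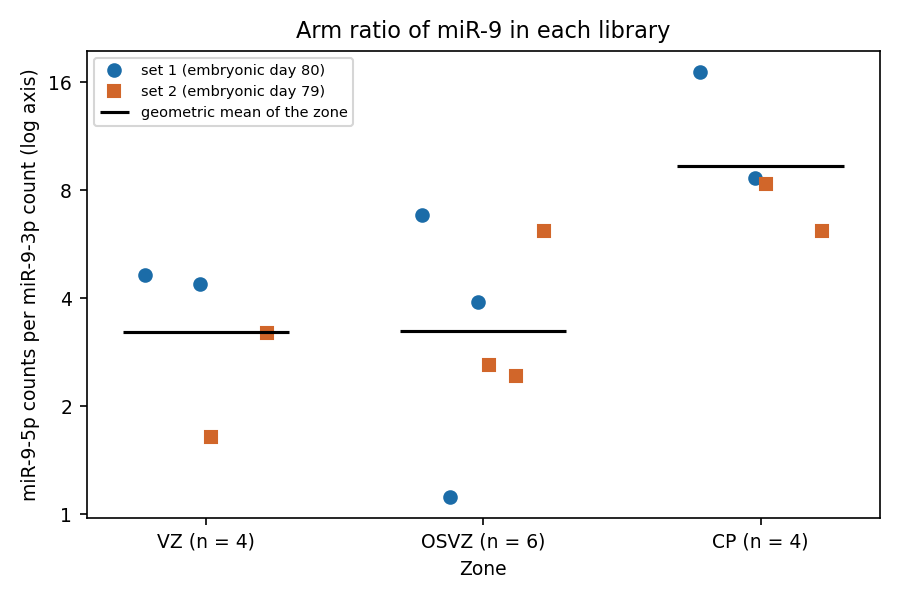
Counts of miR-9-5p per count of miR-9-3p on a log axis, by zone. Circles are set 1, squares set 2 and lines the geometric mean of the zone. The 4 VZ libraries lie at 1.64 to 4.65, the 6 OSVZ libraries at 1.12 to 6.83 and the 4 CP libraries at 6.15 to 17.1.

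On the log2 scale the miR-9 ratio averaged 1.69 ± 0.69 (SD, n = 4) in the VZ, 1.70 ± 0.969 (n = 6) in the OSVZ and 3.22 ± 0.623 (n = 4) in the CP. VZ minus CP was -1.54 ± 0.465 (SE), a 2.9-fold lower ratio. Its p was 0.0286 in an exact two-sided permutation test, the smallest p that 70 permutations can give. Benjamini-Hochberg adjustment over 3 comparisons of zones, not over names, gave 0.0429. Of the 101 names, 15.8% had an unadjusted p under 0.05 in this test of VZ against CP. OSVZ minus CP was -1.52 ± 0.503, a 2.87-fold lower ratio, with the same exact permutation p of 0.0286 and adjusted p of 0.0429. OSVZ minus VZ was 0.0142, with an adjusted p of 0.986 in the exact permutation test. When libraries were permuted only within their replicate block, the set, the exact adjusted p was 0.0833 for VZ against CP, where the smallest unadjusted p possible is 0.0556, and 0.0833 for OSVZ against CP, so neither difference passed. The direction held in each set: VZ minus CP was -1.43 in set 1 and -1.64 in set 2, and OSVZ minus CP was -1.97 and -1.07.

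The size of the difference in the miR-9 ratio changed little as single libraries were left out, from -1.74 to -1.21 for VZ minus CP and from -1.74 to -1.22 for OSVZ minus CP. The calls were lost more easily, since the p of VZ against CP already stood at the smallest value its permutations can give. Leaving out any of CP_17 replicate 1, CP_18 replicate 1, CP_17 replicate 2, VZ_17 replicate 2, OSVZ_17ext replicate 1, OSVZ_18 replicate 1, OSVZ_17int replicate 2 or OSVZ_17ext replicate 2 put the adjusted exact permutation p of both comparisons between 0.0714 and 0.107. The OSVZ libraries among these are not part of VZ against CP, whose adjusted p changed there only through the adjustment over 3 comparisons. In a limma fit over the 101 names with the set as a block, an alternative added after seeing the data, the miR-9 ratio differed by -1.54 ± 0.551 between VZ and CP (adjusted p = 0.115) and by -1.37 ± 0.515 between OSVZ and CP (adjusted p = 0.216). limma called 1 name, 0.99%, in each of these comparisons. The median over the 101 names was -0.197 for VZ minus CP, and 18 names had a more negative difference than miR-9.

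**Figure D4:**
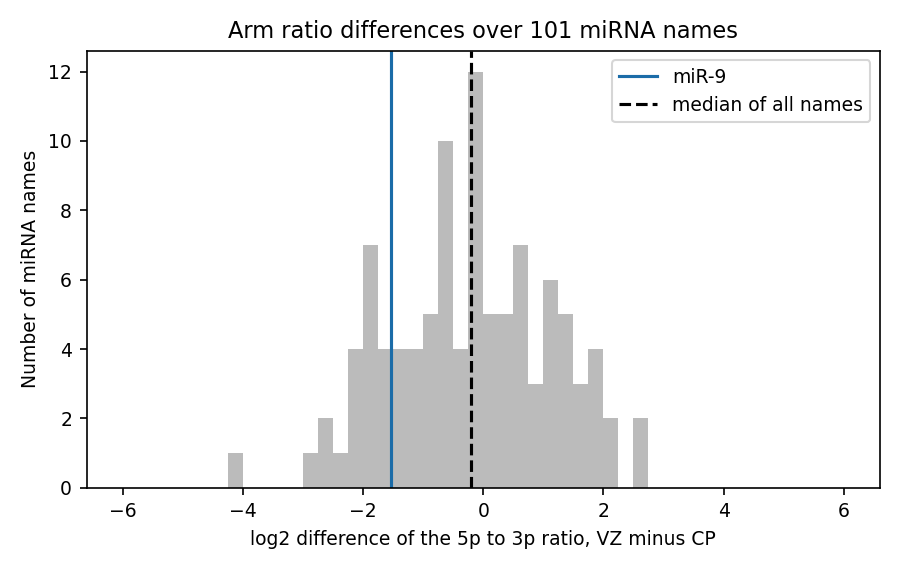
Distribution over 101 microRNA names of the difference in log2 5p to 3p ratio, VZ minus CP, with the number of names on the vertical axis. The blue line marks miR-9 at -1.54 and the dashed line the median of all names at -0.197; 18 names lie left of miR-9.

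The 5p to 3p ratio of all reads of a library was 1.69 to 4.3 in the VZ, 1.7 to 5.67 in the OSVZ and 5.55 to 7.95 in the CP, so OSVZ and CP overlapped. With miR-130b and miR-9 left out of the sums, it was 4.05 to 4.76, 5.26 to 6.4 and 6.91 to 9.78, and the zones did not overlap. The median log2 ratio over names did not follow the zones, at 0.676 to 1.47 in the VZ, 0.529 to 1.25 in the OSVZ and 0.517 to 1.59 in the CP. The part of these library-wide ratios in the miR-9 ratio was not tested. When both arms were summed before the edgeR fit, also added after seeing the data, miR-9 was at -0.367 ± 0.515 on the log2 scale for VZ against CP (adjusted p = 0.727 over 760 names) and at -0.129 ± 0.485 for OSVZ against CP (adjusted p = 0.952).

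Counts of miR-124-3p were at or near the detection limit in every zone. As for miR-9, reads depend on how well a small RNA is ligated and sequenced. The counts thus do not give the level of miR-124 in the tissue, and the cause of the low counts was not tested. Its count was 4, 0, 0 and 0 in the VZ, in the order VZ_17 replicates 1 and 2 and VZ_18 replicates 1 and 2. In the OSVZ the 6 counts ran from 0, with a median of 0.5, to 15 in OSVZ_17ext replicate 2, and OSVZ_17int and OSVZ_18 had 1 count each in replicate 1. In the CP it had 13 counts in CP_17 replicate 1, 0 in CP_17 replicate 2, 11 in CP_18 replicate 1 and 19 in CP_18 replicate 2. The zones overlapped at 0, and 3 of the 4 CP libraries held more than 10 counts, as did 1 of the 10 germinal zone libraries.

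All 14 libraries together held 64 counts of miR-124-3p among 92863408 reads. It was at 0 in 7 libraries, at 1 to 3 counts in 2 and above 3 in 5, and its highest level was 3.27 CPM before TMM scaling. A count of 0 allows up to 3 counts, or 0.315 to 0.833 CPM depending on the library, which covers counting error only. Reads carried no molecular identifiers that the labels mention, so they are not independent molecules. miR-124-3p ranked 1008 of the 1139 arms tested, 11.5% of which were lower.

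The zone means of miR-124-3p were 0.215 CPM in the VZ, 0.4595 in the OSVZ and 1.959 in the CP. The filter asks for about 10 counts in at least 2 libraries, and outside the CP only OSVZ_17ext replicate 2 reached that. miR-124-3p thus entered the tests only through the CP, where it was highest, so its comparisons with the CP carry no support. The edgeR difference between VZ and CP was -4.61 ± 1.94 on the log2 scale, with an adjusted p of 0.165. Such a fitted value depends on the prior count of the fit where libraries are at 0 and is no measure of fold. The adjusted p was 0.386 for OSVZ against CP, 0.742 for OSVZ against VZ and 0.473 for any difference among regions. No region order can be read beyond CP_18, where both libraries were above 3 counts, at 2.435 and 2.411 CPM. Without CP_17 replicate 1 the VZ difference was -1.63 with an adjusted p of 1.

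miR-124-5p, the passenger strand, had 10 counts over all libraries, with 9 libraries at 0 and a maximum of 4 in OSVZ_17ext replicate 1, so it entered no test. The name miR-124a, in the table of set 2 only, had 5p counts of 0 in CP_17, 2 in CP_18, 1 in OSVZ_17ext, 10 in OSVZ_17int, 0 in OSVZ_18, 1 in VZ_17 and 1 in VZ_18, and its 3p counts were all 0. The lowest miR-9-3p count of any library was 14831.

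**Figure D5:**
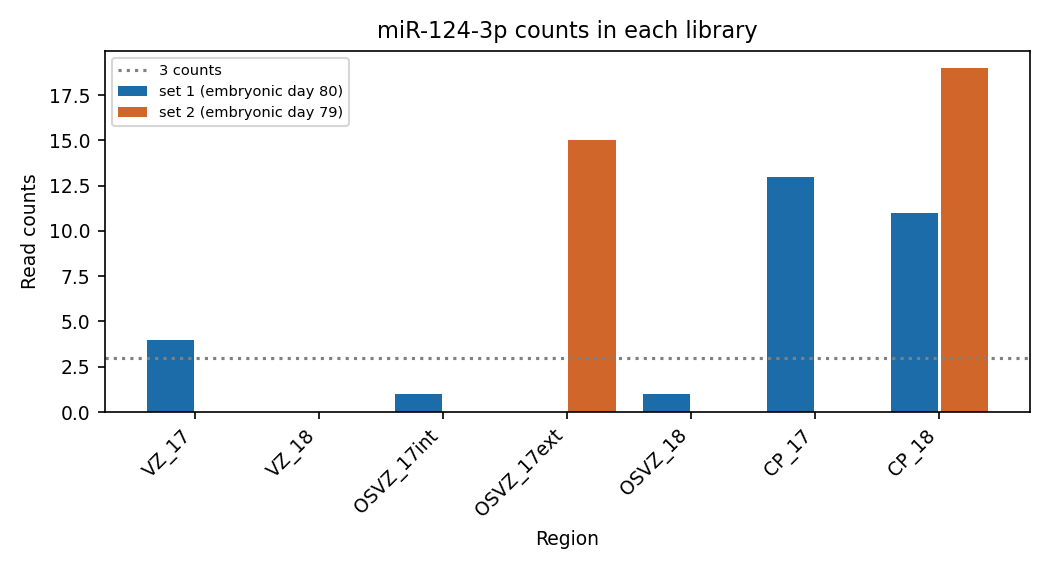
Read counts of miR-124-3p by region, with set 1 in blue and set 2 in orange; the dotted line marks 3 counts, the limit that a count of 0 allows. The bars above 10 counts are CP_17 and CP_18 of set 1, and OSVZ_17ext and CP_18 of set 2, and 7 of the 14 libraries have no bar.

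Other neuronal and progenitor microRNAs of the same libraries give the setting. Of 34 tested arms of a neuronal list, 12 fell and 0 rose in the VZ against the CP in edgeR, beside 4.74% of all arms falling, and their median was -1.23 on the log2 scale against -0.222 for all arms. In the OSVZ against the CP, 16 of the 34 fell and 0 rose, beside 4.21% of all arms falling, with a median of -1.97 against -0.203. By mean level the leading arms were miR-149-5p, miR-139-5p, miR-138-5p and miR-129-3p. miR-138-5p, which acts on dendritic spine size, averaged 325.5 CPM in the VZ and 4033 in the CP, a log2 difference of -3.63 ± 0.392 (edgeR adjusted p = 2.23e-08). miR-139-5p averaged 1023 and 10220 CPM (adjusted p = 8.27e-08), and miR-129-3p 760.1 and 1658 CPM (adjusted p = 0.0416). miR-149-5p, with 39250 and 40820 CPM, did not pass (adjusted p = 0.929). Without VZ_17 replicate 2 and VZ_18 replicate 1, 8 of the 34 arms fell in the VZ and 18 in the OSVZ, beside 2.99% and 5.97% of all arms.

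Of 28 arms of a progenitor list, 4 rose and 2 fell in the VZ against the CP, and 3 rose and 0 fell in the OSVZ, with medians of 0.398 and 0.572. Of all arms, 2.63% rose in the VZ and 2.11% in the OSVZ. Its leading arms by mean level were miR-130b-3p, miR-16-5p, miR-92b-3p and miR-221-3p. miR-92b-3p, which is known to restrain the production of intermediate progenitors, averaged 38820 CPM in the VZ and 785.8 in the CP, a rise of 5.64 ± 0.44 in the VZ (edgeR adjusted p = 1.51e-11), on the scale on which miR-9-5p was at -0.92. The others did not pass, with adjusted p of 0.491 for miR-130b-3p, 0.932 for miR-16-5p and 0.0784 for miR-221-3p. Without the same 2 VZ libraries, 7 arms rose and 1 fell in the VZ, and 10 rose and 0 fell in the OSVZ; of all arms, 4.04% then rose in the VZ and 5% in the OSVZ.

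In bulk pieces of tissue, fewer cells of a type and less RNA per cell cannot be told apart, and markers of other cells differed between zones. Myeloid and lymphoid microRNAs summed to 860.9 to 1059 CPM in the VZ, 736.5 to 1283 in the OSVZ and 463.7 to 525 in the CP, with 2 of 10 arms higher in the VZ than in the CP. Over all arms, edgeR called 2.63% higher and 4.74% lower in the VZ, the shares beside which the counts of these lists stand. Oligodendrocyte microRNAs, of which miR-338 is also found in neurons, summed to 115 to 317.5 CPM in the VZ, 97.46 to 157.6 in the OSVZ and 397.6 to 766 in the CP, with 1 of 4 arms higher and 2 lower in the VZ. The choroid plexus list, miR-204 and miR-211, summed to 209.2 to 1952 CPM in the VZ, 166.3 to 956.7 in the OSVZ and 4946 to 7252 in the CP, with 0 of 3 arms higher and 1 lower in the VZ, miR-204-5p (log2 difference -3.84, edgeR adjusted p = 1.47e-07). Endothelial miR-126 lay at 980.2 to 2794, 1434 to 5288 and 1547 to 4504 CPM, with 0 of 2 arms called between VZ and CP. Mural and mesenchymal microRNAs summed to 968.6 to 1957, 1418 to 4937 and 732.6 to 1175 CPM, with 1 of 8 arms higher and 1 lower in the VZ. Red cell microRNAs summed to 55.91 to 326.6, 18.73 to 103 and 22.98 to 125.8 CPM, with 0 of 4 arms called. No list was at 0 in any zone, and the part of these cells in the miR-9 values was not tested.

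The arms whose pattern over the 14 libraries was most like that of miR-9-5p, by Pearson r of log2 CPM after the mean of each set was removed, among the 172 arms that averaged 100 CPM or more, were let-7i-5p (r = 0.872), miR-374b-5p (0.869), miR-1296-5p (0.867) and miR-27b-3p (0.861). let-7i-5p, of the let-7 family that rises as cells leave the cycle, averaged 215 CPM in the VZ and 1172 in the CP, a log2 difference of -2.53 ± 0.48 (edgeR adjusted p = 0.000338). The other 3 did not pass, with adjusted p of 0.12, 0.258 and 0.104. miR-9-3p itself had r = 0.437 with miR-9-5p, lower than each of these. The arms most like miR-9-3p, named after their values were seen, were miR-106b-5p (r = 0.879), miR-340-5p (0.81), miR-186-5p (0.778) and miR-30a-5p (0.76). For miR-124-3p, at 0 in 7 libraries, the highest were miR-181a-5p (r = 0.768), miR-98-5p (0.728), miR-181d-5p (0.707) and miR-361-5p (0.688), values that carry little weight at such counts. All arms share the libraries and their scaling, so these correlations describe likeness of pattern alone.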

How the data were processed

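Small RNA of 14 laser-cut pieces was analysed. The deposited files hold raw read counts per arm of each microRNA, made by the authors; aligner and genome build are not given in the sources used here. Libraries were made with a SOLiD small RNA kit, per the labels' protocols. Another table held 12 value columns of 6 libraries that matched no label and was not used. Columns were assigned to samples by region name and by the set of their table.

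Counts of shared names were fitted in R 4.3.3 with edgeR 4.0.16: TMM scaling, filterByExpr (minimum count 10, total 15), region means with the set as a block, the quasi-likelihood test, and Benjamini-Hochberg adjustment over 1139 arms at 0.05. The labels give each set its own embryonic day; deviations from region means within a set correlated at a median of 0.309 (0.0351 to 0.564, 20 of 21 pairs above 0.1). Arm ratios used an offset of 0.5 counts and exact permutation tests; limma 3.58.1 and DESeq2 1.42.0 served as alternatives. Scripts were tested on simulated data. No 2 libraries had identical counts. With few libraries a region, precision is limited by their spread, and counting error is small except for miR-124.

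All arms of miR-9 and miR-124 are described, with the 4 arms most like the more abundant arm of each and up to 4 of the most abundant arms of the neuronal and progenitor lists. The members and lists were chosen with earlier results of these data known. Planned ratios of miR-124-3p or miR-128-3p to other arms were not computed, since miR-124-3p was at 0 in 7 libraries and miR-128 is not analysed here.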

Additional observations from a re-analysis of the deposited data

Results flagged for a closer look

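Among 12 groups of 4 to 6 libraries, 2 held a library whose gap to the nearest other was above the critical share of the group's range in Dixon's test. Chance gives about 1 such group in 20 for continuous values; both groups hold miR-124-3p counts at or near 0, where nearly any count above 0 stands out. miR-124-3p had 4 counts in VZ_17 replicate 1 and 0 in the other 3 VZ libraries. It had 15 counts in OSVZ_17ext replicate 2 and 0 or 1 in the other 5 OSVZ libraries. The name miR-124a, which stands in the table of set 2 only and entered no comparison, had 10 counts of its 5p arm in OSVZ_17int replicate 2, above the 3 counts that a count of 0 allows.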

How the results depend on the processing

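Of the alternatives run on the miR-9 and miR-124 arms, 642 kept direction and side of the threshold, 17 came to pass it and 31 changed sign; the cause was not tested. Of those on the miR-9 arm ratio, 27 kept both, 22 no longer passed and 5 changed sign. All losses were in the comparisons of VZ and OSVZ with the CP. In each of these, 8 of the 14 fits without 1 library and 3 of the 4 other alternatives no longer passed. All sign changes were in OSVZ against VZ, which did not pass to begin with. miR-124 is limited by its counts, and DESeq2 gave it no adjusted p in several comparisons. Ratios of miR-124-3p or miR-128-3p to other arms were not run. The set was kept as a block in edgeR because the labels tie it to an embryonic day. Without the block, VZ against CP called 53 arms in place of 84, OSVZ against VZ, area 17 against area 18, the same in the VZ and its interaction with zone called 0, and miR-9-3p was at 0.0284 for area in the OSVZ and 0.149 for the interaction. With the block, the differences of the miR-9 ratio from the CP were -1.54 in the VZ and -1.52 in the OSVZ (exact permutation, adjusted p = 0.0833 for both). In limma it was -1.54 and -1.37.

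DESeq2 called more arms than edgeR in most comparisons: 172 for VZ against CP, 129 for OSVZ against CP, 27 for OSVZ against VZ, 2 for inner against outer OSVZ, 18 for area, 22 for area in the VZ, 8 in the CP and 5 for the interaction. With DESeq2 size factors in edgeR, OSVZ against VZ called 0 and area in the VZ 1. Library totals, with or without miR-130b, also gave 0 for OSVZ against VZ, and with all reads miR-9-5p was at -0.0276 for inner against outer OSVZ. With no filter, area called 11 arms, 5 in the VZ, 3 in the CP and 4 for the interaction. At a mean of at least 10 CPM, OSVZ against VZ called 6, and area in the VZ and the interaction 0. With both arms summed, miR-9 was at -0.311 for inner against outer OSVZ.

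As single libraries were left out, calls ranged from 53 to 120 for VZ against CP, 44 to 100 for OSVZ against CP, 0 to 24 for OSVZ against VZ, 0 to 1 for inner against outer OSVZ, 0 to 24 for area, 1 to 26 in the VZ, 0 to 1 in the OSVZ, 0 to 3 in the CP and 0 to 18 for the interaction. miR-9-5p ranged from -2.14 to -0.356 for VZ against CP, -0.295 to 1.5 for OSVZ against VZ, -1.09 to -0.204 for OSVZ against CP, -0.865 to 1.19 for inner against outer OSVZ, -1.25 to -0.0985 for area, -3.12 to 0.293, -1.81 to -0.00814 and -0.232 to 0.62 for area in the VZ, OSVZ and CP, and -3.52 to -0.0873 for the interaction. Its adjusted p for any difference among regions ranged from 0.0124 to 0.933. miR-9-3p ranged from -0.19 to 1.02 for VZ against CP, -0.295 to 0.872 for OSVZ against VZ, -2.09 to 0.209 and -0.463 to 0.0905 for area in the VZ and OSVZ, and -1.68 to 0.777 for the interaction. miR-124-3p ranged from -0.561 to 3.15 for OSVZ against VZ, -6.76 to 3.48 for inner against outer OSVZ and -1.3 to 3.83 for area in the OSVZ. The miR-9 ratio ranged from -1.74 to -1.21 for VZ against CP, -1.74 to -1.22 for OSVZ against CP and -0.31 to 0.32 for OSVZ against VZ.

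Without VZ_17 replicate 2 and VZ_18 replicate 1 together, VZ against CP was 0.00565 for miR-9-5p and 1.31 for miR-9-3p, OSVZ against VZ was -0.504 and -0.554, and the adjusted p of miR-9-3p for any difference among regions was 0.00935. VZ_17 replicate 2 was left out by its low miR-9 itself, which was bound to raise miR-9 in the VZ. VZ_17 and VZ_18 were also each left with a single library. No conclusion is thus drawn from that adjusted p, which was 0.527 in edgeR with all libraries. In the same setting the miR-9 ratio was -1.27, -1.52 and, for OSVZ against VZ, -0.249. Calls were 125 for OSVZ against CP, 2 for OSVZ against VZ, 6 for inner against outer OSVZ, 3 for area, 0 in the VZ, 1 in the OSVZ, 3 in the CP and 0 for the interaction.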
